A study of Mus musculus with 8 samples.

Results

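Genomic imprinting leaves a gene active on the copy inherited from 1 parent and silent on the other. The mark is laid down in the germ line as DNA methylation at imprinting control regions, most of which are methylated in the growing oocyte and a few in sperm, and it is read in the embryo, placenta and brain, where imprinted genes act on growth, nutrient transfer and behaviour. A fully grown oocyte carries the mother's marks on both of its copies, so a gene that is silenced by methylation of the maternal copy may be low in this cell. Not all genes of this kind followed below were low, as Mest shows. A gene whose control region is methylated in sperm is not methylated there in the oocyte. Polyadenylated RNA of such a gene, once made, is open to deadenylation like any other, and CNOT7 and CNOT8 are closely related catalytic subunits of the CCR4-NOT complex, which shortens poly(A) tails.

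A list of 42 mouse imprinted genes was followed in RNA of fully grown germinal vesicle (GV) oocytes. CNOT7&8 KO oocytes came from C57BL/6J-background females with floxed Cnot7 and Cnot8 alleles and a Zp3-Cre transgene, and control oocytes from Zp3-Cre females, so both groups carried the transgene, which is driven by a zona pellucida promoter and acts only from the growing oocyte on. The females were 4 weeks old and primed with PMSG. There were 4 libraries of each group, each from 100 oocytes, and the labels do not say which oocytes shared a female, so p-values measure the spread between these libraries, which may be technical. The members were chosen by symbol and not by level: 41 of the 42 were found among the 46078 genes of the table, Zim3 was not analysed here, and 40 of the 41 had at least 1 count in a library. The counts do not tell the parental copies apart. The labels name a library kit for total RNA with ribosomal RNA removal. The methods name a kit for mRNA but describe it as working by ribosomal RNA depletion. Both sources thus state ribosomal RNA removal, and only the name of the methods kit leaves poly(A) capture in question. With capture, a CPM would reflect tail length as well as the amount of RNA.

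Total counts ran from 8639444 to 44092144 per library, and 3 counts corresponded to 0.0680 to 0.347 CPM (counts scaled to the library's total) before the TMM correction used for all CPM below. Cnot8 RNA was 154 to 197 CPM in control and 33.1 to 36.1 CPM in KO libraries, whereas Cnot7 RNA, 886 to 1048 CPM in control, was still 622 to 788 CPM in KO libraries, so that only Cnot8 RNA separates the labels widely. These are counts over the whole gene, and the study reports from immunoblots that both proteins were depleted in KO oocytes. Oocyte markers (12 genes, among them Gdf9 and Bmp15) summed to 17293 to 19720 CPM in control and 14514 to 16782 CPM in KO libraries. The sum of 16 granulosa and cumulus markers was 143 to 182 CPM in control and 224 to 302 CPM in KO (exact permutation test, two-sided, p = 0.0286, the smallest that 4 against 4 allows). Foxl2, 1 of the 16, had at most 1 count in any library. In mean CPM, Nr5a2 (56.6 and 122) and Kitl (16.0 and 43.4) rose most, and Cyp19a1 fell (58.4 and 31.3). Of the 15 tested, 12 had a positive and 3 a negative log2 fold change, and 9 were not called. Theca and stroma markers summed to 3.54 to 6.19 and 3.02 to 5.22 CPM, and the 7 blood and endothelium markers to 88.4 to 109 and 78.4 to 91.6 CPM, nearly all of it Pecam1. Of that list the 3 haemoglobin genes had 0 counts, while the leukocyte gene Ptprc (0.122 ± 0.146 and 0.615 ± 0.343 CPM, log2 fold change 2.53, adjusted p = 0.0108) and the macrophage gene Cd68 (1.20 ± 0.437 and 3.24 ± 0.579 CPM, 1.46, adjusted p = 0.00141) were upregulated, and their part in the results below was not tested. Control replicate 1 and KO replicate 4, the deepest library of each group, stood apart on the second principal component (40.1 and 52.1, the others -44.0 to -3.31). In RNA of pooled oocytes, a change in RNA per cell cannot be told apart from a change in the make-up of the cells collected.

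More of the imprinted genes rose than fell in CNOT7&8 KO oocytes. Of the 36 that passed the filter (at least 0.2 CPM in 2 libraries), 14 were upregulated by at least 2-fold at a false discovery rate of 0.05 or less and 2 were downregulated (edgeR's quasi-likelihood test, adjusted over all 19241 genes tested). That is 38.9% and 5.56% of the members, beside 23.8% and 6.56% of all genes tested, of which 30.4% were called either way. By the false discovery rate alone, 18 members were higher (31.2% of all genes) and 4 lower (24.1%). The median log2 fold change was 0.75 over the 36 members and 0.12 over all genes. Magel2, Zrsr1, Mirg and Ndn had the largest increases, and H13 and Rasgrf1 were the 2 that fell. Without control replicate 1 and KO replicate 4, 17 members were upregulated and 2 downregulated. With library sizes left unscaled, which moved the median log2 fold change of all genes up by 0.29, 18 were upregulated and 1 downregulated. In the whole table the same change of scaling turned 4582 upregulated and 1263 downregulated genes into 5641 and 588.

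**Figure D1:**
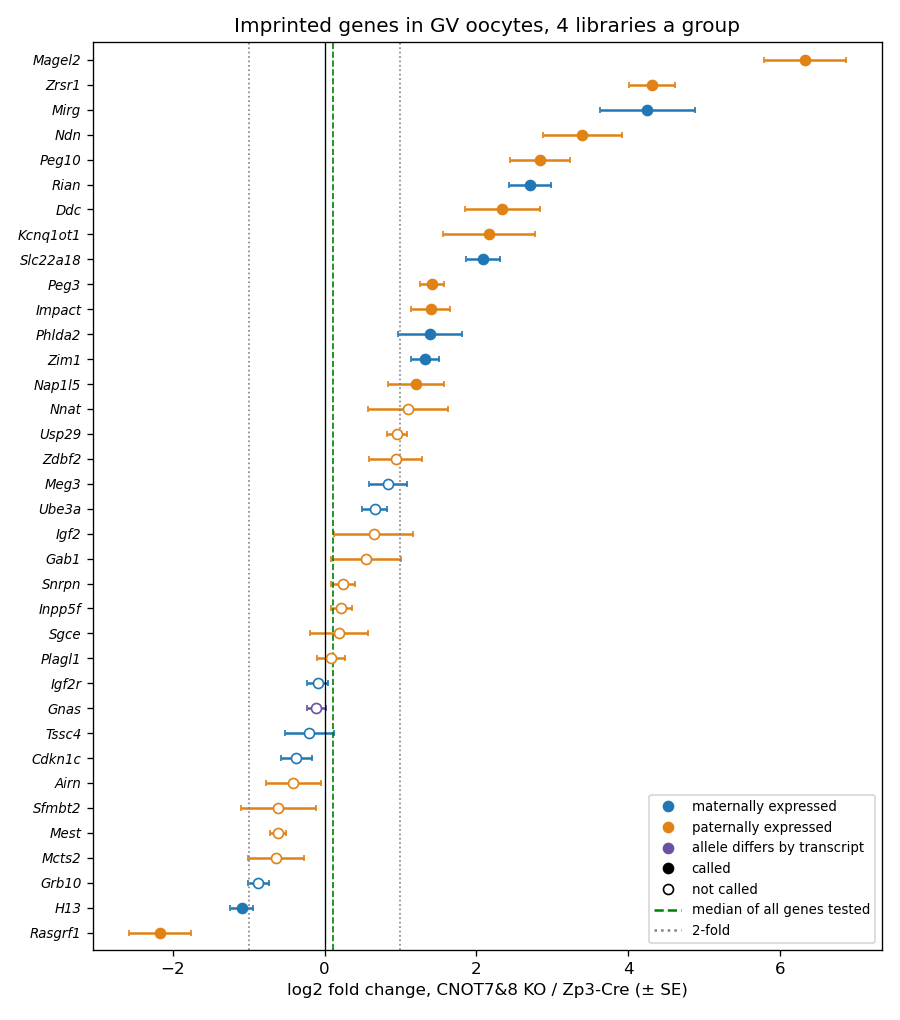
Log2 fold change of each of the 36 imprinted genes tested, CNOT7&8 KO against Zp3-Cre, with its standard error (horizontal bars), ordered by size. Colour gives the copy usually expressed, filled circles are called genes, dotted lines mark 2-fold, and the dashed line is the median of all genes tested at 0.12. The 14 upregulated members run from 1.20 for Nap1l5 to 6.32 for Magel2.

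The members that rose were scarce in control oocytes. Their median control level was 1.61 CPM, 11 of the 14 were under 5 CPM in control, and the highest, Peg3, was at 27.8 CPM. Among members with a mean under 10 CPM over all libraries, 10 of 21 were upregulated and 1 downregulated, where 35.6% and 5.64% of all genes in that range were. Among those at 10 CPM or more the counts were 4 and 1 of 15, where 9.65% and 7.68% were. Magel2, Ddc and Mirg passed the filter only through their KO libraries, so that they could be tested only because they differed. All 3 are counted among the 14 upregulated members. Levels of KO and control libraries did not overlap for 15 members that were higher in KO, these 3 among them (27.0% of all genes), and 4 that were lower (21.4%), and overlapped for 17.

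Upregulated members were found in both classes of expressed copy, where 23.8% of all genes were upregulated and 6.56% downregulated. Of the paternally expressed members tested, 9 of 23 (39.1%) were upregulated and 1 downregulated, with a median log2 fold change of 0.94. Of the maternally expressed ones, 5 of 12 (41.7%) were upregulated and 1 downregulated, with a median of 0.75. By the germ line in which the control region is methylated, 12 of 29 members with oocyte methylation were upregulated and 1 downregulated, as were 2 and 1 of 5 with sperm methylation, and neither of the 2 members without germline DNA methylation (Gab1 and Sfmbt2) was called. These differences between classes were not tested.

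In the Snrpn cluster of chromosome 7, a run of intronless genes held the largest increase. Magel2 (chromosome 7, 62377010 to 62381640, plus strand, GRCm38), which encodes a MAGE family protein that promotes ubiquitin ligase activity in neurons, had 1, 0, 0 and 1 counts in the control libraries and 28, 39, 40 and 56 in the KO libraries. The KO levels were 3.04, 2.14, 2.47 and 1.91 CPM, all above every control library. Against a control total of only 2 counts, the ratio of summed counts scaled to library size was 96.1 (exact 95% interval 26.2 to 801, counting error only), and the log2 fold change was 6.32 (SE 0.54, adjusted p = 2.3e-06). Magel2 passed the filter only through its KO libraries, which limits what its adjusted p-value shows. Ndn, another MAGE family gene, next to Magel2, was at 0.241, 0.148, 0.272 and 0 CPM in control and at 1.95, 1.81, 2.90 and 1.16 CPM in KO libraries. No KO library reached down to the control range, and the log2 fold change was 3.39 (SE 0.52, adjusted p = 0.000171). Their neighbours Mkrn3 and Peg12 stayed under the filter, with 0 to 2 counts in any library.

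Snrpn itself, which encodes a spliceosomal protein and whose promoter holds the control region of this cluster, averaged 12.3 ± 1.60 CPM in control and 14.5 ± 1.72 CPM in KO (SD, n = 4 for this and every later ± value). The log2 fold change was 0.25 (SE 0.16, adjusted p = 0.196) and the groups overlapped. Of Snrpn's exon bases, 27.3% also belong to Gm38393 on the same strand, and the way shared reads were assigned is not given in the sources used here, so its level is uncertain. Ube3a, the E3 ubiquitin ligase that is lost in Angelman syndrome and is imprinted only in neurons, was at 264, 165, 192 and 170 CPM in control and 305, 287, 275 and 382 CPM in KO libraries. Every KO library exceeded every control library, and the log2 fold change of 0.66 (SE 0.16, adjusted p = 0.00405) passed the false discovery rate but not 2-fold. Snhg14, the antisense transcript that overlaps 8.74% of Ube3a's exon bases, was at 2.24 ± 0.65 CPM in control and 3.71 ± 0.924 CPM in KO, far below Ube3a in both.

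In the Dlk1-Dio3 region of chromosome 12, where a series of maternally expressed noncoding RNAs share 1 strand, Rian and Mirg were called and Meg3 was not. Meg3 (109541001 to 109571726), the first of them, was at 4.32 ± 0.974 CPM in control and 7.79 ± 2.39 CPM in KO, a log2 fold change of 0.84 (SE 0.24, adjusted p = 0.0116), under 2-fold. It was past 2-fold with library sizes unscaled (1.11) and with scaling on genes of at least 10 CPM (1.08). Rian (109603940 to 109661716), which hosts snoRNAs, was at 5.43, 2.61, 3.95 and 1.82 CPM in control and 23.9, 24.0, 18.7 and 25.6 CPM in KO libraries. All KO libraries were well above control, and the log2 fold change was 2.70 (SE 0.28, adjusted p = 9.16e-06).

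Mirg (109729764 to 109749460), a host of microRNAs, was at 0.107, 0.0987, 0.136 and 0 CPM in control and 2.71, 2.75, 1.48 and 0.681 CPM in KO libraries. The groups did not overlap, although KO replicate 4 was the lowest, and the log2 fold change was 4.25 (SE 0.62, adjusted p = 0.000125). Mirg passed the filter only through its KO libraries, so it could be tested only because it differed. The log2 ratio of Rian to Meg3 counts (0.5 added to each) was -1.06 to 0.59 in control and 1.09 to 2.03 in KO libraries. That of Mirg to Meg3 was -6.57 to -4.82 and -3.17 to -1.49, whereas that of Mirg to Rian overlapped, at -5.67 to -4.42 and -5.20 to -3.11. These ratios, which do not depend on scaling, were chosen after the values were seen and are given without a test. Dlk1, the paternally expressed Notch-like ligand at the other end, had 0 counts in all 8 libraries, which allows at most 3 counts in each. Dio3, the thyroid hormone deiodinase beyond Mirg, is given with the other imprinted genes.

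The reference table of RefSeq (GRCm38) places 14 microRNA hairpins with 26 mature sequences inside Mirg, 4 of the hairpins lying in its exons. The rows of these 14 hairpins in the table held 9 counts over all 8 libraries, so mature microRNAs were not measured. Only 1 seed (bases 2 to 8, in capitals) was shared within Mirg, by the first 2 sequences below; the other 3 come from hairpins in its exons and show how the seeds differ.
mmu-miR-453: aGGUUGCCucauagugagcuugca
mmu-miR-496a-5p: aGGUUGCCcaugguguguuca
mmu-miR-134-5p: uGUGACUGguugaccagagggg
mmu-miR-377-3p: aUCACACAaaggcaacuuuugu
mmu-miR-410-3p: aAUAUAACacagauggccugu

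Zrsr1, an intronless copy of a splicing factor gene that lies within Commd1 on the opposite strand (chromosome 11, 22972005 to 22976496), rose by the second largest amount. It was at 0.561, 0.296, 0.408 and 0.218 CPM in control and 10.6, 6.86, 6.35 and 8.44 CPM in KO libraries. No library of one group came near the other, and the log2 fold change was 4.31 (SE 0.31, adjusted p = 5.97e-07). Commd1, which encodes a regulator of copper transport, fell over the same libraries, from 83.6 ± 8.81 to 36.7 ± 3.41 CPM (log2 fold change -1.19, SE 0.12, adjusted p = 9.44e-06). The log2 ratio of Zrsr1 to Commd1 counts was 5.57 higher in KO. The genes share 412 exon bases, 9.17% of Zrsr1, and the strand setting of the counting is not given in the sources used here. Zrsr2, from which the Zrsr1 copy derives, was at 38.8 ± 8.56 CPM in control and 31.7 ± 2.41 CPM in KO, and the longest stretch identical between the transcripts was 14 bases.

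Peg10 and Sgce, whose transcription starts lie 99 bases apart on opposite strands of chromosome 6, did not move together. Peg10, a retrotransposon-derived gene needed for the placenta, was at 2.62, 1.18, 1.56 and 0.801 CPM in control and 8.03, 7.58, 10.1 and 20.2 CPM in KO libraries. All KO libraries were above control, with KO replicate 4 highest, and the log2 fold change was 2.84 (SE 0.39, adjusted p = 8.25e-05). Sgce, which encodes epsilon-sarcoglycan, stayed at 0.557 ± 0.176 CPM in control and 0.639 ± 0.0827 CPM in KO (log2 fold change 0.19, SE 0.38, adjusted p = 0.692). The log2 ratio of Peg10 to Sgce counts was 1.35 ± 0.90 in control and 3.99 ± 0.69 in KO, with no overlap.

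At the Peg3 cluster on chromosome 7 all 3 members tested were higher in KO. Peg3, a zinc finger protein of the placenta and brain, was at 35.6, 27.1, 26.0 and 22.5 CPM in control and 70.2, 65.0, 71.2 and 90.1 CPM in KO libraries, a log2 fold change of 1.41 (SE 0.16, adjusted p = 1.9e-05). Usp29, a deubiquitinase gene that starts 147 bases from Peg3 on the other strand, was at 72.0, 48.5, 61.6 and 57.5 CPM in control and 114, 111, 111 and 127 CPM in KO libraries. Both genes had no overlap between groups, but the log2 fold change of Usp29, 0.95 (SE 0.13, adjusted p = 7.24e-05), was just short of 2-fold and passed it in 6 alternatives of scaling, filter or libraries. Zim1, a maternally expressed zinc finger gene next to Peg3, was at 8.74, 6.41, 8.91 and 5.46 CPM in control and 18.2, 20.1, 16.6 and 19.2 CPM in KO libraries. Its groups were also apart, with a log2 fold change of 1.32 (SE 0.18, adjusted p = 7.77e-05).

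The Kcnq1ot1 domain of chromosome 7 held both called and uncalled genes. Kcnq1ot1 (143203458 to 143296549, minus strand), the paternally expressed RNA that silences the domain in cis, was at 2.27, 0.987, 2.72 and 0.728 CPM in control and 15.4, 9.99, 4.69 and 1.5 CPM in KO libraries. KO replicate 4 lay inside the control range while the other 3 KO libraries were above it. The log2 fold change was 2.17 (SE 0.60, adjusted p = 0.00914), and 2.57 without KO replicate 4. Slc22a18, a transporter gene, was at 0.989, 1.18, 1.09 and 1.02 CPM in control and 5.10, 4.67, 4.93 and 3.64 CPM in KO libraries. These levels were tight within each group and well apart, with a log2 fold change of 2.09 (SE 0.23, adjusted p = 1.35e-05).

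Phlda2, which restrains growth of the placenta, was at 0.641, 2.07, 2.65 and 2.40 CPM in control and 4.78, 3.46, 8.26 and 3.27 CPM in KO libraries, with no overlap (log2 fold change 1.39, SE 0.42, adjusted p = 0.0147). Without KO replicate 3 it was 1.02 and no longer called (adjusted p = 0.0687). Cdkn1c, the cell cycle inhibitor p57, was at 5.86 ± 0.629 CPM in control and 4.55 ± 0.981 CPM in KO (log2 fold change -0.37, SE 0.20, adjusted p = 0.138). Tssc4 was at 13.9 ± 4.96 and 12.1 ± 4.78 CPM (-0.20, SE 0.32, adjusted p = 0.619), and Ascl2, a trophoblast transcription factor, stayed under the filter with 0 to 5 counts. Kcnq1, the potassium channel gene that Kcnq1ot1 runs against, fell from 42.2 ± 4.06 to 16.9 ± 0.677 CPM (adjusted p = 4.61e-06), and the log2 ratio of Kcnq1ot1 to Kcnq1 counts was -4.83 ± 1.03 in control and -1.56 ± 1.49 in KO.

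**Figure D2:**
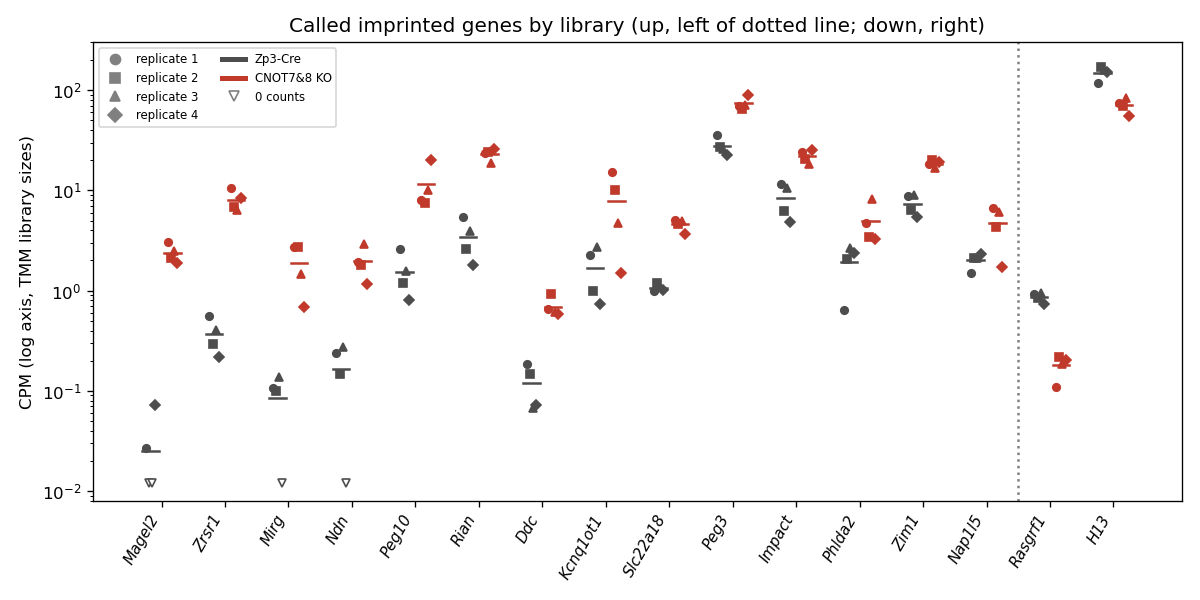
CPM on a log axis of the 16 called imprinted genes in each of the 4 Zp3-Cre (grey) and 4 CNOT7&8 KO (red) libraries, with the mean of each group as a line and libraries with 0 counts as open triangles near the axis. Kcnq1ot1 and Nap1l5 are the 2 genes whose groups overlap, in both through KO replicate 4.

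Of the remaining upregulated members, Impact, which restrains the kinase GCN2 and so affects translation under amino acid shortage, was at 11.7, 6.22, 10.5 and 4.88 CPM in control and 24.2, 20.6, 18.3 and 25.2 CPM in KO libraries. Its lowest KO library was above its highest control, with a log2 fold change of 1.40 (SE 0.25, adjusted p = 0.000576). Ddc, the enzyme that makes dopamine and serotonin, was at 0.187, 0.148, 0.0680 and 0.0728 CPM in control and 0.651, 0.933, 0.617 and 0.579 CPM in KO libraries. The groups were apart but rest on 1 to 7 counts in each control library, and the log2 fold change was 2.34 (SE 0.49, adjusted p = 0.00156). Ddc passed the filter only through its KO libraries, which limits what this p-value shows. Nap1l5, a nucleosome assembly protein gene in an intron of Herc3, was at 1.5, 2.12, 2.11 and 2.33 CPM in control and 6.62, 4.28, 6.10 and 1.74 CPM in KO libraries. KO replicate 4 fell within the control range. Its log2 fold change was 1.20 (SE 0.37, adjusted p = 0.0147), 1.52 without KO replicate 4, and 1.02 (adjusted p just over 0.05) without KO replicate 1.

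H13 and Rasgrf1 fell. H13, which encodes signal peptide peptidase and whose full-length RNA is made from the maternal copy, was at 119, 171, 157 and 153 CPM in control and 73.9, 69.8, 83.2 and 54.9 CPM in KO libraries. The groups did not overlap, and the log2 fold change was -1.09 (SE 0.15, adjusted p = 7.64e-05), which was -0.81 with library sizes unscaled, -0.85 with scaling on genes of at least 10 CPM and -0.98 without KO replicate 4, in each case short of 2-fold. Mcts2, the retrogene in an intron of H13, was at 0.980 ± 0.121 CPM in control and 0.654 ± 0.305 CPM in KO (log2 fold change -0.64, SE 0.37, adjusted p = 0.161). Both genes lie on the same strand, so reads of unspliced H13 RNA could count as Mcts2, and their share was not measured. Mcts1, the X-linked source gene of Mcts2, was at 5.22 ± 0.630 and 8.55 ± 0.237 CPM. The longest stretch identical between the transcripts of Mcts2 and Mcts1 was 29 bases. Rasgrf1, a guanine nucleotide exchange factor of neurons whose control region is methylated in sperm, was at 0.935, 0.839, 0.952 and 0.728 CPM in control and 0.109, 0.220, 0.185 and 0.204 CPM in KO libraries. No KO library held more than 6 counts, and the log2 fold change was -2.17 (SE 0.41, adjusted p = 0.000786).

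Per kilobase of exon, the member with the highest level in both groups was Mest, at 67.0 CPM per kb in control and 43.8 in KO. Mest, a hydrolase-like gene of mesoderm, was at 300, 257, 252 and 248 CPM in control and 175, 192, 155 and 170 CPM in KO libraries. All KO libraries were below control, and the log2 fold change of -0.61 (SE 0.11, adjusted p = 0.000481) passed the false discovery rate but not 2-fold. Copg2, a coat protein gene on the opposite strand that shares 23.1% of Mest's exon bases, fell from 121 ± 24.6 to 58.5 ± 7.77 CPM (log2 fold change -1.05, SE 0.15, adjusted p = 0.000114), but was short of 2-fold with library sizes unscaled (-0.76), with scaling on genes of at least 10 CPM (-0.79), with the stricter filter of 1 CPM in 4 libraries (-0.97) and without control replicate 1 (-0.89), KO replicate 1 (-0.97) or KO replicate 3 (-0.96), and without both control replicate 1 and KO replicate 4 (-0.98). Grb10, an adaptor that restrains insulin signalling and is paired with Ddc, was at 44.5 ± 5.72 CPM in control and 24.4 ± 3.17 CPM in KO, and also passed the false discovery rate alone (log2 fold change -0.87, SE 0.14, adjusted p = 0.000271).

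Igf2r, the receptor that clears IGF2, was at 175, 130, 121 and 141 CPM in control and 134, 129, 111 and 159 CPM in KO libraries. The groups overlapped, and the log2 fold change of -0.092 (SE 0.14, adjusted p = 0.604) turned to 0.20 with library sizes unscaled. Airn, the paternally expressed RNA antisense to it, was at 2.06 ± 0.830 CPM in control and 1.52 ± 0.550 CPM in KO (log2 fold change -0.41, SE 0.37, adjusted p = 0.363). Igf2, the growth factor, stood near the filter at 0.253 ± 0.0891 and 0.379 ± 0.182 CPM (0.65, SE 0.52, adjusted p = 0.309). Gm49394, which shares 62.8% of the exon bases of Igf2 on the same strand, is not among the genes counted. H19, the noncoding neighbour of Igf2, had 0 to 4 counts per library and was not tested.

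Gnas, a complex locus whose main product is the stimulatory G protein subunit that holds cAMP high in the oocyte, was at 106, 123, 110 and 120 CPM in control and 107, 122, 115 and 83.0 CPM in KO libraries. KO replicate 4 was lowest and the other 3 KO libraries lay within the control range. The log2 fold change was -0.11 (SE 0.13, adjusted p = 0.506), turning to 0.18 with library sizes unscaled. Nespas, the antisense RNA at this locus, fell from 0.907 ± 0.181 to 0.283 ± 0.249 CPM (log2 fold change -1.77, SE 0.56, adjusted p = 0.0180), and was not called without KO replicate 4 (-1.44). Inpp5f, a phosphoinositide phosphatase gene, was at 80.7, 60.2, 68.9 and 61.7 CPM in control and 69.5, 70.2, 84.2 and 92.3 CPM in KO libraries, with overlap (0.22, SE 0.14, adjusted p = 0.189).

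**Figure D3:**
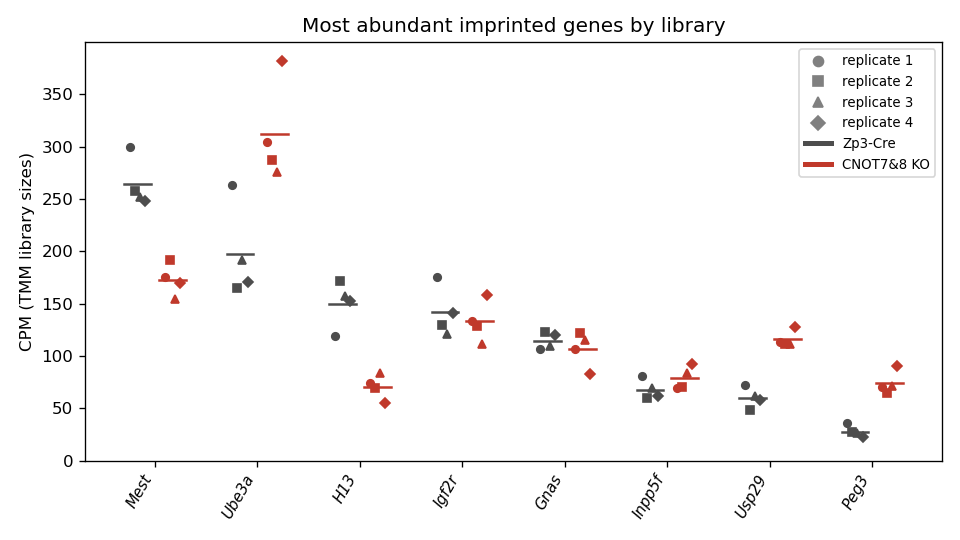
CPM by library of the 8 imprinted genes that average 50 CPM or more in either group (grey, Zp3-Cre; red, CNOT7&8 KO), with group means as lines. Ube3a, Usp29 and Peg3 lie higher and Mest and H13 lower in every KO library, while Igf2r, Gnas and Inpp5f overlap.

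The members not yet named were uncalled. Zdbf2, a zinc finger gene of postnatal growth, was at 1.12 ± 0.447 CPM in control and 2.23 ± 0.669 CPM in KO, and passed the false discovery rate alone (log2 fold change 0.94, SE 0.35, adjusted p = 0.0363). It was called in 8 alternatives, at up to 1.23 with library sizes unscaled and 1.18 without KO replicate 3, and did not pass the false discovery rate without KO replicate 4 (0.87, adjusted p = 0.0723). Nnat, a small membrane protein gene inside Blcap, was at 0.382 ± 0.179 and 0.880 ± 0.480 CPM (1.10, SE 0.53, adjusted p = 0.0944). Without KO replicate 4 it was called, at 1.47 (adjusted p = 0.0174). It was also called unscaled (1.40) and with scaling on genes of at least 10 CPM (1.38), but not with RLE scaling. Plagl1, a zinc finger regulator of growth, was at 38.5 ± 7.47 and 41.0 ± 9.58 CPM (0.084, SE 0.18, adjusted p = 0.720). Gab1, a signalling adaptor, was at 0.904 ± 0.475 and 1.34 ± 0.859 CPM (0.55, SE 0.46, adjusted p = 0.328), and Sfmbt2, a Polycomb protein, at 0.471 ± 0.195 and 0.320 ± 0.137 CPM (-0.61, SE 0.50, adjusted p = 0.315). Both are imprinted without germline DNA methylation, through histone marks. In all, 13 of the 36 members passed neither threshold, with log2 fold changes from -0.64 to 0.65, and Nnat passed only the 2-fold one.

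Together, all members summed to 1180 ± 98.7 CPM in control and 1290 ± 66.0 CPM in KO (exact permutation test, two-sided, p = 0.114), and the 8 most abundant members made 80.4% to 87.4% of the sum in each library.

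Ratios of counts between a member and a neighbouring or overlapping gene do not depend on how libraries were scaled. Of 9 such pairs, 5 had no overlap between groups, all with the member relatively higher in KO: Zrsr1 to Commd1, Kcnq1ot1 to Kcnq1, Peg10 to Sgce, Peg3 to Usp29 and Mest to Copg2. The log2 ratio was higher by 0.46 for Peg3 to Usp29 and by 0.42 for Mest to Copg2, less than for the other 3. Each of the 5 had the smallest p that the exact permutation test allows, 0.0286, which is 0.0514 adjusted over the 9 pairs and so does not pass 0.05. Igf2r to Airn, H13 to Mcts2, Nap1l5 to Herc3 and Nnat to Blcap overlapped. Among single genes tested, 27.0% were higher and 21.4% lower in KO without overlap, and the share for ratios over all genes was not computed. The partners Commd1, Kcnq1 and Copg2 were themselves downregulated, which raises the ratios to them.

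**Figure D4:**
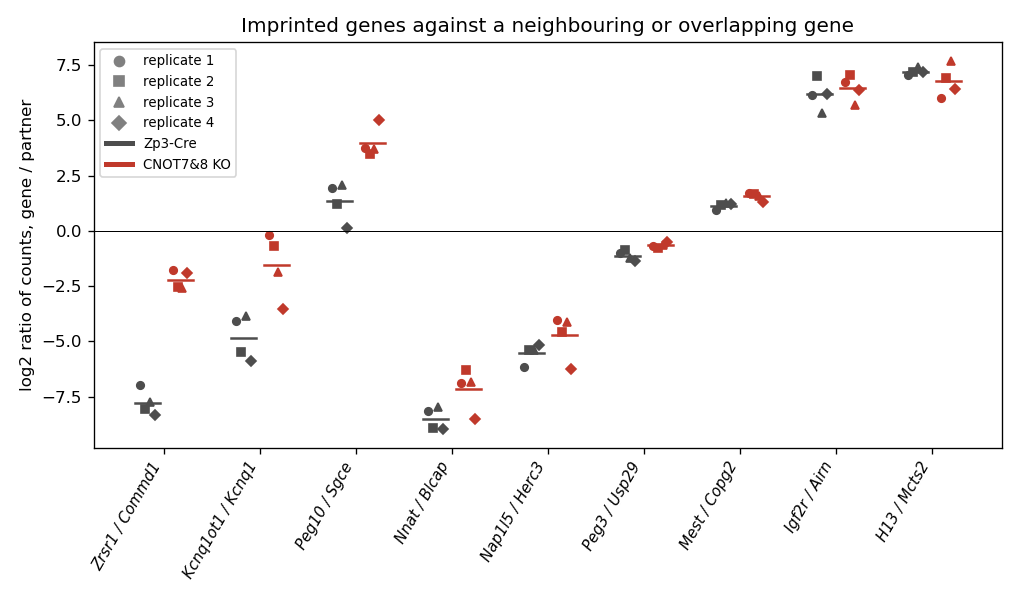
Log2 ratio of counts (0.5 added to each) of 9 imprinted genes to a neighbouring or overlapping gene, by library (grey, Zp3-Cre; red, CNOT7&8 KO; lines, group means). The ratio of Zrsr1 to Commd1 differed most between groups, by 5.57, and the highest ratios, of H13 to Mcts2 and Igf2r to Airn, overlapped between groups.

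Some members spread widely among the KO libraries, as did some genes of the granulosa list. Kcnq1ot1, Nap1l5, Mirg and Nnat were lowest in KO replicate 4, at 0.149, 0.306, 0.294 and 0.286 times the mean of the other 3 KO libraries. Inha, the inhibin alpha subunit, was at 38.4, 34.1, 26.5 and 4.77 CPM in KO libraries and 4.44 to 10 CPM in control, and Fst, follistatin, was at 9.66, 13.2, 5.61 and 1.53 CPM and 1.13 to 2.11 CPM. These were 0.144 and 0.161 times in KO replicate 4. Of the 15 granulosa and cumulus markers tested, 6 (40.0%) were upregulated, beside 23.8% of all genes. Cyp19a1, the aromatase gene and among the most abundant of the list, was lower in every KO library (58.4 ± 8.01 and 31.3 ± 6.02 CPM, log2 fold change -0.90, adjusted p = 0.000507), and Amh was at 0.765 ± 0.681 and 0.340 ± 0.209 CPM (-1.09, adjusted p = 0.187). Kitl and Nr5a2, also on that list and upregulated, did not drop in KO replicate 4 (0.902 and 1.11 times), nor did Rian, Zrsr1, Peg3 or Impact (1.06 to 1.31 times), and Peg10 and Gab1 were highest there (2.36 and 2.89 times). Whether RNA of granulosa cells has a part in these levels was not tested.

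**Figure D5:**
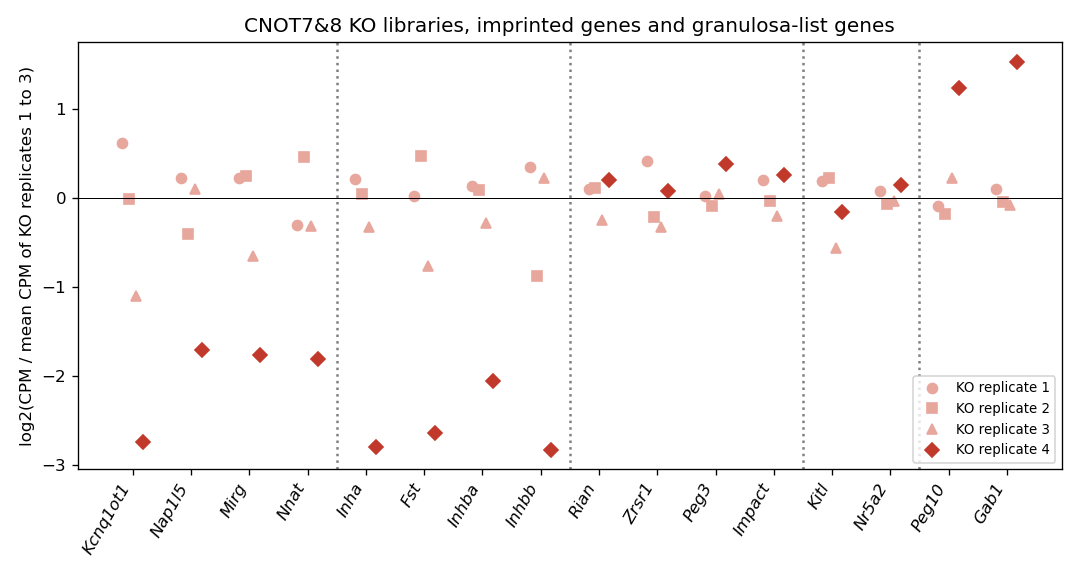
Log2 of CPM in each CNOT7&8 KO library over the mean of KO replicates 1 to 3, for imprinted genes and for genes of the granulosa list (Inha, Fst, Inhba, Inhbb, Kitl and Nr5a2), chosen after their values were seen. KO replicate 4 (dark diamonds) lies far below the others for the 8 genes on the left, near them in the middle, and above them for Peg10 and Gab1.

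Methylation imprints are set by a small machinery, of which 37 genes on 4 lists were all tested. Of these, 3 were upregulated and 3 downregulated, 8.11% each way, with a median log2 fold change of -0.26, beside 23.8% and 6.56% of all genes. By the false discovery rate alone 4 were higher and 15 lower, beside 31.2% and 24.1% of all genes. Most regulators named below averaged at least 10 CPM. Of the 8726 genes tested at that level, 9.65% were upregulated and 7.68% downregulated, with a median of -0.26, near the values of the regulators. By the false discovery rate alone 1827 of these genes were higher and 3658 lower. Among genes that establish imprints, the de novo methyltransferase Dnmt3a was at 211 ± 10.2 CPM in control and 167 ± 11.1 CPM in KO and its cofactor Dnmt3l at 128 ± 15.0 and 103 ± 4.74 CPM. Both lay lower in every KO library, by log2 fold changes of -0.34 (adjusted p = 0.0109) and -0.32 (adjusted p = 0.0294), under 2-fold. Ehmt2, a histone H3 lysine methyltransferase, rose from 2.78 ± 0.447 to 9.59 ± 2.57 CPM, a log2 fold change of 1.79 (SE 0.24, adjusted p = 6.34e-05).

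Among genes that maintain imprints after fertilization, the methyltransferase Dnmt1 fell from 4421 ± 334 to 1919 ± 196 CPM, a log2 fold change of -1.20 (SE 0.11, adjusted p = 3.79e-06). Its partner Uhrf1 fell from 895 ± 146 to 410 ± 96.2 CPM, by -1.13 (SE 0.17, adjusted p = 0.000164). Both were short of 2-fold with library sizes unscaled, at -0.92 and -0.85. Dppa3, which shields the maternal marks, was at 1038 ± 43.4 and 848 ± 80.6 CPM (-0.29, adjusted p = 0.0261). Zfp57, which binds methylated control regions, was at 1140 ± 104 and 946 ± 9.61 CPM (-0.27, adjusted p = 0.0321), turning to 0.016 with library sizes unscaled. Trim28 (207 ± 11.6 and 224 ± 21.5 CPM) and Zfp445 (45.3 ± 8.97 and 54.4 ± 6.55 CPM) did not pass either threshold.

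Of the maternal-effect genes linked to imprinting, Khdc3 rose from 13.4 ± 2.48 to 60.3 ± 5.30 CPM (log2 fold change 2.17, SE 0.15, adjusted p = 5.79e-07) and Tle6, another member of the subcortical maternal complex, fell from 1943 ± 190 to 822 ± 140 CPM (-1.24, SE 0.14, adjusted p = 1.49e-05), short of 2-fold with library sizes unscaled (-0.96). Ring1, of the Polycomb machinery behind noncanonical imprints, rose from 0.945 ± 0.468 to 2.28 ± 0.463 CPM (1.28, SE 0.34, adjusted p = 0.00731).

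A second list of 45 imprinted genes gave 10 upregulated and 7 downregulated among 33 tested, 30.3% and 21.2%, with a median log2 fold change of 0.26. That lies beside 23.8% and 6.56% of all genes tested. Calcr, the calcitonin receptor gene, and Pon2 passed the filter only through their KO libraries, so that they could be tested only because they differed. Calcr had 2, 1, 1 and 0 counts in control and 22, 36, 45 and 164 in KO libraries, a ratio of summed counts scaled to library size of 78.7 (exact 95% interval 30.4 to 291, counting error only), with a fitted log2 fold change of 5.96 (SE 0.56). The next largest increases were those of Dio3 (4.02, SE 0.29), Jade1, a histone acetylation scaffold (3.59, SE 0.32), and Smoc1, a secreted matrix protein (2.87, SE 0.41). Dio3, at the far end of the Meg3 region, went from 0.835 ± 0.262 to 13.4 ± 4.48 CPM. The largest decreases at a mean of at least 1 CPM were those of Kcnq1 (-1.32, SE 0.12), Gpr1 (-1.26, SE 0.13), Commd1 (-1.19, SE 0.12) and Osbpl5 (-1.05, SE 0.24), the last 3 of which were short of 2-fold with library sizes unscaled. Osbpl5 was also short of it without control replicate 2 (-0.997), control replicate 4 (-0.98) or KO replicate 2 (-0.89), with scaling on genes of at least 10 CPM (-0.81) and with the stricter filter of 1 CPM in 4 libraries (-0.98). Gpr1, the receptor gene next to Zdbf2, went from 292 ± 42.9 to 122 ± 12.7 CPM.

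CpG dinucleotides, the sites of DNA methylation, were counted in promoter windows of the imprinted genes. RefSeq windows of 300 bases (250 before and 50 after a start, GRCm38) were matched for 36 of the 42 genes, 53 windows in all. The median of the richest window per gene was 17 CpG, against 8 over 27025 genes, which include genes not tested here. Upregulated members had a median of 10 CpG (12 genes) and uncalled members 23.5 (18 genes). In some uncalled members the richest window was taken from more windows, and the upregulated Peg10 and Impact had no matched window. Over all genes tested with a window, the medians were 15 for upregulated, 19 for downregulated and 21 for uncalled genes. The 17 of the members lay between these values. The hexamer TGCCGC, which ZFP57 binds when its CpG is methylated, was sought on both strands, where its other strand reads GCGGCA. It was found for 11 members (30.6%) and for 13.1% of the 27025 genes, tested or not. With at least 10 CpG in the window it was found for 10 of 29 members and for 24.4% of such genes among the 27025. The hexamer lay in at least 1 window of 2 of 12 upregulated and 9 of 18 uncalled members. Some uncalled members had more windows to search, 4 each for Gnas, Snrpn and Igf2 and 3 for Mest. Among upregulated members Ddc had the most, 2. Shares by call over all genes were not computed, and the difference was not tested. The windows are not the control regions, which were not analysed here, and methylation was not measured.

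Stretches of 30 bases that hold the hexamer (capitals) are shown for the 2 upregulated members that have it and for the retrogene Mcts2, each read along the strand of its gene. In Nap1l5 (chr6:58907133-58907162, minus strand) a hexamer begins 24 bases before the RefSeq start. In Zim1 (chr7:6696435-6696464, minus strand) it begins 20 bases before the start and is read from the other strand. In Mcts2 (chr2:152686898-152686927, plus strand) it begins 247 bases before the start.
Nap1l5: cagccattcactTGCCGCgagccgcgaagc
Zim1: gaaagtcatcccGCGGCAttccactccggg
Mcts2: gccTGCCGCagcttggcgcatgtccagtcc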

How the data were processed

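RNA was measured in 8 libraries (4 Zp3-Cre, 4 CNOT7&8 KO), grouped by the labels. The authors deposited raw read counts per gene in 1 table, 46078 genes; by the submitters' processing notes, reads were aligned with STAR 2.6.1d to GRCm38 and edgeR 3.11 was used afterwards. The counting tool and its strand setting are not given in the sources used here. The labels and methods name different stranded kits (total RNA with ribosomal RNA removal, and mRNA), though the methods also describe ribosomal RNA depletion. Totals of 8639444 to 44092144 counts set the precision of low genes, and intervals cover counting error only.

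The imprinted genes, gene lists and tests were chosen with earlier results of these data known. Genes with at least 0.2 CPM in 2 libraries were tested on the whole table with edgeR 4.0.16 in R 4.3.3 (TMM scaling, glmQLFit, glmQLFTest, Benjamini-Hochberg). A gene was called when its change was 2-fold or more with a false discovery rate no higher than 0.05. The filter and thresholds follow the study, which used edgeR's exact test, here an alternative. The standard error (SE) is the size of the log2 fold change over the square root of the F statistic. CPM used TMM library sizes. Single values and count ratios (0.5 added) were tested with an exact permutation test over 70 assignments, two-sided. Fits were tested on simulated data.

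Every listed gene is accounted for. Values in each library are given for called members and those of at least 50 CPM in either group. Regulators named are Dnmt3a, Dnmt3l, Dnmt1, Uhrf1, Dppa3, Zfp57, Trim28, Zfp445 and any called gene of those lists, and other imprinted genes are the 4 largest calls each way at 1 CPM or more. Positions and exon overlaps are from GENCODE M21 (GRCm38), promoter windows and microRNAs from RefSeq. Meg3, Rian and Dlk1 each had a second identifier with 0 counts, which was left out. Alternatives were edgeR's exact test, DESeq2 1.42.0, 3 other scalings, 2 other filters, no fold threshold, a replicate block, and each library left out. Same-numbered libraries of both groups did not deviate together.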

Additional observations from a re-analysis of the deposited data

Results flagged for a closer look

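Single libraries stood apart from the other 3 of their group (Dixon's gap test, 95% level) in 9 of 126 gene and group combinations, where chance alone gives about 6.3. Control replicate 1 gave 4 of these and KO replicate 4 gave 2. In control replicate 1, Tssc4 was at 6.52 CPM (15.5 to 17 in the others), Grb10 at 53.0 (40.7 to 42.6), Gpr1 at 356 (266 to 278) and Blcap, the gene around Nnat, at 171 (126 to 131). In KO replicate 4, Usp29 was at 127 CPM (111 to 114 in the others) and Gab1 at 2.62 (0.863 to 0.977). The remaining 3 were Igf2 at 0.109 CPM in KO replicate 1 (0.439 to 0.493), Zdbf2 at 1.23 CPM in KO replicate 3 (2.50 to 2.62) and Dio3 at 1.22 CPM in control replicate 3 (0.655 to 0.740). The causes were not tested.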

How the results depend on the processing

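The 14 upregulated members kept their direction in all alternatives, and 12 of them stayed called in every alternative that could test them, while Phlda2 and Nap1l5 were each lost without 1 KO library. edgeR's exact test and DESeq2 gave 14 upregulated and 2 downregulated members. Downregulated members numbered 1 with library sizes unscaled, with scaling on genes of at least 10 CPM and with a filter of 1 CPM in 4 libraries, and 4 without the fold threshold. Leaving out each library gave 13 to 16 upregulated and 1 to 2 downregulated members and medians of 0.71 to 0.94.

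In the whole table, downregulated genes numbered 588 unscaled, 627 with scaling on genes of at least 10 CPM and 4631 without the fold threshold, and upregulated ones 2882 with the stricter filter, which tests fewer genes. Of establishment and maintenance genes, 0 were downregulated unscaled or with scaling on genes of at least 10 CPM, where Dnmt1 and Uhrf1 fell short of 2-fold. With RLE scaling 2 were downregulated, as in the main fit. Without the fold threshold 7 were downregulated and 2 upregulated. Of other imprinted genes, 3 were downregulated unscaled, with scaling on genes of at least 10 CPM and under the stricter filter, and 7 with RLE scaling. There were 4 without control replicate 1 and KO replicate 4, and 13 without the fold threshold.

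Uncalled genes changed sign. Unscaled, the log2 fold change of Igf2r was 0.20, of Tssc4 0.070, of Gnas 0.18 and of Zfp57 0.016. With scaling on genes of at least 10 CPM, Igf2r was 0.17, Tssc4 0.026 and Gnas 0.14. With libraries left out, Igf2r ranged from -0.16 to 0.027 (above 0 without control replicate 1 or KO replicate 3), Plagl1 from -0.021 to 0.31 (below 0 without control replicate 2 or KO replicate 1), and Gnas from -0.16 to 0.014 and Gab1 from -0.036 to 1.04 (both reversed without KO replicate 4).

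Same-numbered libraries deviated with correlations of -0.12 to 0.11. Other pairs across groups ran from -0.33 (control replicate 1 with KO replicate 3) to 0.37 (control replicate 1 with KO replicate 4). Whether same-numbered libraries were prepared together cannot be told from these values. With the replicate block 15 members were upregulated and 2 downregulated, the added one being Zdbf2 (log2 fold change 1.0, adjusted p = 0.0200). Depth limits members with few counts, such as Ddc, Ndn, Igf2 and Rasgrf1.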
